A study of Mus musculus with 6 samples.

Results

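Potassium channel genes were followed across the stromal, vascular and glial cells of the mouse intestinal lamina propria. They were taken as every gene whose symbol starts with Kcn, leaving out 2 symbols that end in os, and numbered 97 of the 33697 genes in the count matrices. Grouped by symbol, 40 were taken as voltage-gated pore subunits and 8 as calcium- or sodium-activated pore subunits (Kcnma, Kcnn, Kcnt and Kcnu symbols). Another 15 were taken as inward rectifiers, 14 as two-pore channels and 17 as auxiliary subunits, and 3 are non-coding RNAs (Kcnq1ot1, Kcnmb4os1 and Kcnmb4os2). The group of a single gene, such as Kcnu1, thus follows its name and not a measured property. The cells came from Flare-TSLP mice on a C57BL/6 background, adults of both sexes by the study's general methods, in which the red protein tdTomato reports the Tslp locus. Live tdTomato+ cells were sorted, and all libraries share this genotype, with no treatment named. No filter on tdTomato was applied to the droplets, and 1695 cells that met immune markers and 92 that met epithelial markers were set aside. The 6 libraries came from the proximal small intestine (proximal jejunum, replicates 1 and 2), the distal small intestine (distal ileum, replicates 1 and 2), the cecum and the large intestine (1 library each). Each library pooled cells that carried 3 hashtag antibodies. Cecum, large intestine and both replicate 1 libraries shared 1 set of hashtags, and both replicate 2 libraries shared another.

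A potassium channel lets potassium ions cross the membrane and so sets its voltage, which in turn decides how much calcium enters the cell and whether muscle-like cells contract. Each family opens to its own signal. Voltage-gated channels open on depolarization, small and large conductance channels open with calcium, ATP-sensitive channels open when cellular ATP is low, and two-pore channels leak at rest. Stromal cells and smooth muscle of the gut are known to be coupled by gap junctions, through which such voltage changes spread.

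Cells were assigned to 10 classes by marker genes, none of them a Kcn gene. The classes were trophocytes (13900 cells), Adamdec1 fibroblasts (14752), subepithelial fibroblasts (4022), telocytes (3379), Ptn-Scg2 cells (2583), pericytes (1036), myofibroblasts (857), lymphatic endothelial cells (15463), blood endothelial cells (1424) and glia (165). Together they held 57581 of 93558 cells (61.5%), and the other cells met no class's rule or met the rule of cells that were set aside. UMIs, molecular tags that count captured transcripts, were summed over the cells of a class in a library and are given as CPM, counts scaled to the same total for every sum. Counting was from the 3′ end of transcripts, so levels of different genes were compared without scaling by length. Total gene UMIs ranged from 109675337 to 206827504 per library. Glia rest on 22 to 62 cells per small intestinal library and telocytes on 46 to 149. At most 100 cell barcodes were shared between any pair of libraries. Each class had most of its own markers above 0 in its median cell, from 4 of 5 (Adamdec1 fibroblasts and Ptn-Scg2 cells) to all 8 (lymphatic endothelial cells). The same markers assigned the cells, so this is largely built in and is no separate check of the names. Some single markers were sparse or differed between the small intestine and the large bowel (cecum and large intestine). Scg2 had a UMI in 27.6% of 1154 Ptn-Scg2 cells of the small intestine and 0.420% of 1429 of the large bowel. Lgr5 had one in 35.3% of 323 telocytes and 3.76% of 3056, and Fgf7 in 25.8% of 10415 Adamdec1 fibroblasts and 33.8% of 4337, in the same order. In the large bowel some were nearly lost, among them Scg2 in Ptn-Scg2 cells, Dkk2 in trophocytes, Vwc2 in Adamdec1 fibroblasts and Lrat in subepithelial fibroblasts. In both large bowel libraries 4 of 5 Adamdec1 fibroblast markers and the subepithelial markers Procr, Agt and Wnt4 lay above the small intestinal range. The trophocyte markers Ackr4, which the class requires, Rspo3, Cd34 and C3 were within or above it. Grem1 was below it in the cecum (515 CPM against 1467 to 1881) and above it in the large intestine (1964). Grem1 had a UMI in 94.7% of 13116 trophocytes of the small intestine and 58.4% of 784 of the large bowel. For Ptn-Scg2 cells 3 of 5 markers were below the range. These names thus cover another mix of markers there.

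Of the 97 genes, 3 (Kcnk15, Kcnk16 and Kcnv1) had no UMI in any class. A mean of 5 CPM in at least 1 class of the small intestine was reached by 51 genes, a mean of 50 by 27, and 50 had enough counts to be tested between classes. A small set of pore subunits led in most classes. In Ptn-Scg2 cells Kcnn3 gave 78.0 ± 3.00% of all pore-forming Kcn UMIs (SD, n = 4 libraries, as below), in myofibroblasts Kcnma1 gave 55.7 ± 6.96%, and in Adamdec1 fibroblasts Kcnk2 gave 44.3 ± 12.7%. In lymphatic endothelial cells Kcnn3 gave 50.5 ± 4.24% and Kcnk5 27.5 ± 2.12%. Kcnn3 led in trophocytes with 38.1 ± 5.39%, Kcna1 in glia with 28.6 ± 1.84%, Kcnk2 in telocytes with 28.0 ± 10.3%, Kcnt2 in pericytes with 26.3 ± 1.32% and Kcnq1 in blood endothelial cells with 21.1 ± 4.49%. The summed level of the pore subunits was 3494 ± 403 CPM in Ptn-Scg2 cells and 3396 ± 532 in glia, means that differ by less than either SD, and 285 ± 44.5 in subepithelial fibroblasts.

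**Figure D1:**
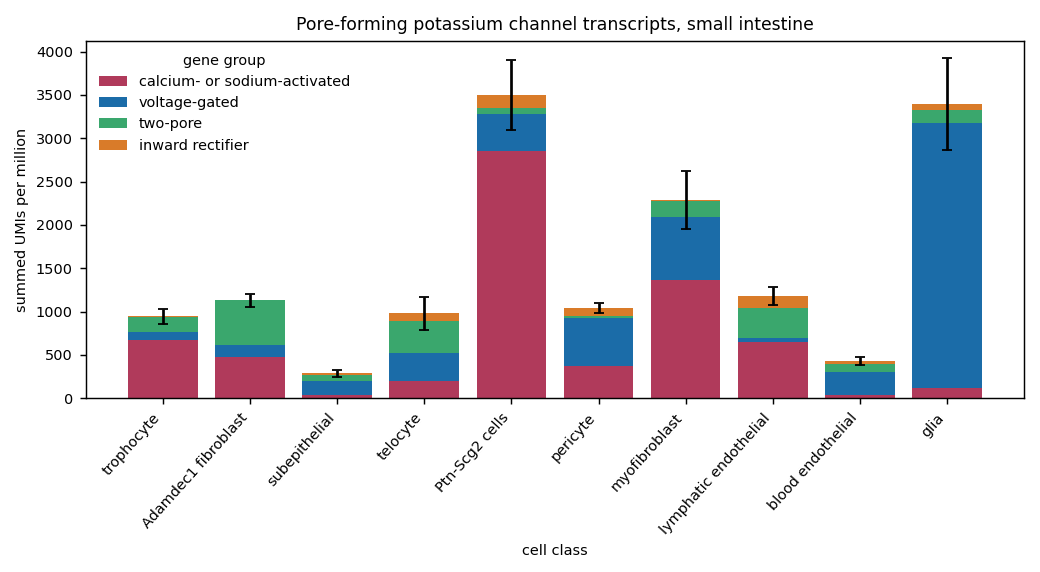
Summed CPM of the pore-forming Kcn genes (y axis) in each cell class (x axis), stacked by gene group, as the mean of 4 small intestinal libraries; error bars are 1 SD of the total. Calcium- or sodium-activated subunits make up most of the Ptn-Scg2 bar (2856 of 3494) and voltage-gated subunits most of the glial bar (3060 of 3396).

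**Figure D2:**
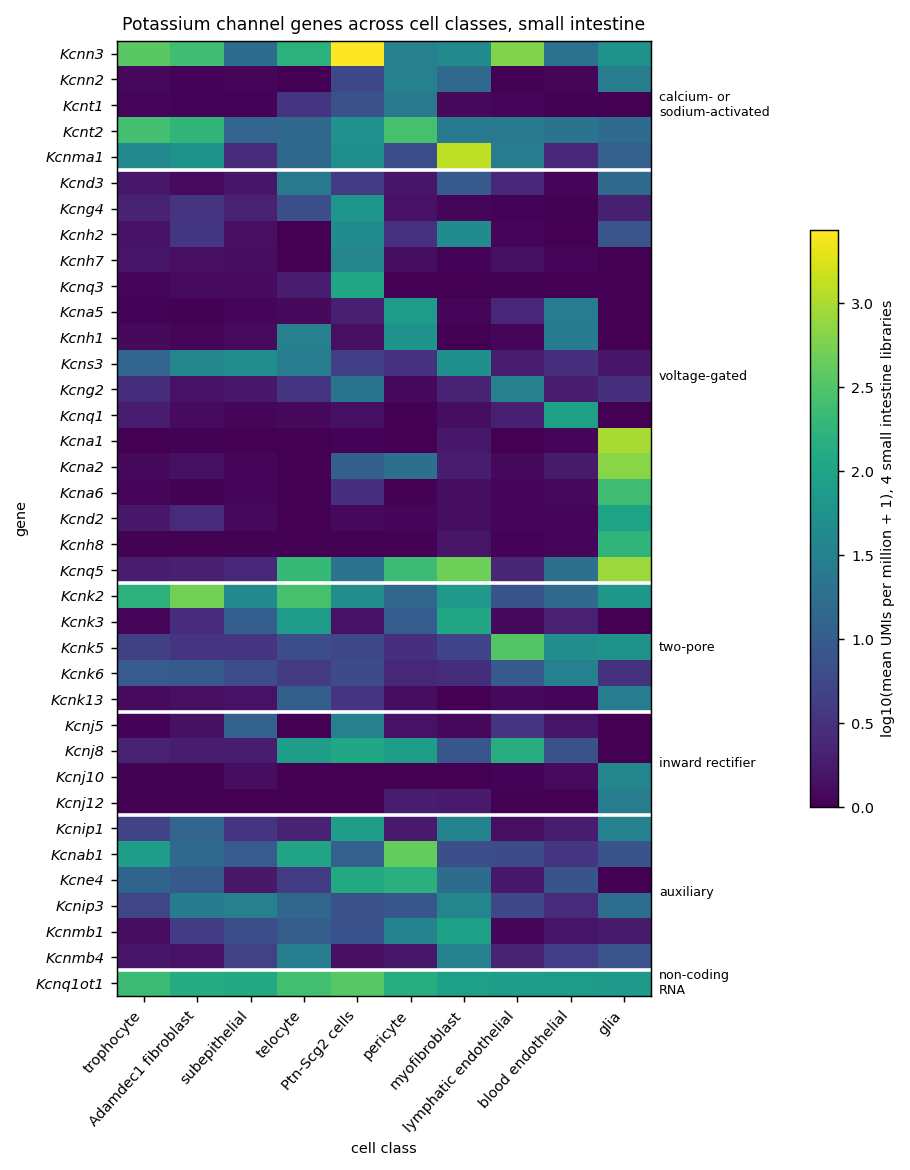
Level of 37 Kcn genes with a mean of at least 20 CPM in some class (rows, grouped by kind) in the 10 cell classes (columns), as log10 of the mean CPM plus 1 over 4 small intestinal libraries. The Kcna1, Kcna2, Kcna6 and Kcnh8 rows are bright in glia, and the Kcnn3, Kcnq3, Kcng4 and Kcnh7 rows are brightest in Ptn-Scg2 cells.

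Each class was set against the mean of the other 9 in 1 fit over the 4 small intestinal libraries, with library as a block (edgeR's quasi-likelihood test, Benjamini-Hochberg adjustment over all 13709 genes tested). Of the 50 members tested, 20 were higher in Ptn-Scg2 cells (26.6% of all genes were), 20 in myofibroblasts (23.6%), 16 in pericytes (23.6%), 16 in Adamdec1 fibroblasts (33.2%), 15 in trophocytes (35.0%), 15 in telocytes (17.1%), 15 in glia (14.9%), 12 in subepithelial fibroblasts (31.9%), 12 in lymphatic endothelial cells (36.6%) and 10 in blood endothelial cells (32.2%). Read against these shares of all genes, 30% of the members tested were higher in glia and in telocytes, 40% in Ptn-Scg2 cells and myofibroblasts, and 24% in lymphatic endothelial cells and subepithelial fibroblasts. In blood endothelial cells it was 20%. The median log2 difference of the members tested was 0.61 in Ptn-Scg2 cells and 0.37 in myofibroblasts, -1.18 in lymphatic and -1.13 in blood endothelial cells, while the median of all genes lay between -0.09 and 0.03 in every class. Genes pass the filter on low counts partly through the class in which they are high, so these counts describe the tested members only. The paper reports several biological samples from each small intestinal tissue, but no label ties a library to separate animals. With library as a block, the p-values rest on the spread left over the sums of all 10 classes in these 4 libraries. They do not measure the spread between animals.

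The ATP-sensitive channel of vascular type is built from the inward rectifier Kcnj8 (Kir6.1) and the sulfonylurea receptor Abcc9 (SUR2), which is no Kcn gene. They are neighbors on the minus strand of chromosome 6 in GRCm39 (mm39), Kcnj8 (ENSMUSG00000030247) at 142510563 to 142517830 and Abcc9 at 142533588 to 142648571, 15.8 kb apart. The large conductance calcium-activated channel (BK) is built from the pore Kcnma1 and, in smooth muscle, the auxiliary subunit Kcnmb1. The promoters of both pairs are shown because the levels of pore and partner are compared below. They are the 250 bases before the RefSeq start site in GRCm38.p6, another build than that of the counts, and matches to the searched motifs on either strand are in capitals.
Kcnj8, chr6:142571615-142571864, minus strand: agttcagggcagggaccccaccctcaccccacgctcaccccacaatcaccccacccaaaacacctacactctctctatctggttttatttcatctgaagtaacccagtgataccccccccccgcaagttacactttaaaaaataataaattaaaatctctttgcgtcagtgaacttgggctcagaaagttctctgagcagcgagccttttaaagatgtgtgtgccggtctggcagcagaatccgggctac
Abcc9, chr6:142702275-142702524, minus strand: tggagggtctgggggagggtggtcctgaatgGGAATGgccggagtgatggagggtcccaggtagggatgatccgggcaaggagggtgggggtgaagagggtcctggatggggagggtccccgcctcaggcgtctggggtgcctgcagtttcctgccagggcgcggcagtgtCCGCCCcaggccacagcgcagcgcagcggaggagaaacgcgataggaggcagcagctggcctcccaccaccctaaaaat
Kcnma1, chr14:24004206-24004455, minus strand: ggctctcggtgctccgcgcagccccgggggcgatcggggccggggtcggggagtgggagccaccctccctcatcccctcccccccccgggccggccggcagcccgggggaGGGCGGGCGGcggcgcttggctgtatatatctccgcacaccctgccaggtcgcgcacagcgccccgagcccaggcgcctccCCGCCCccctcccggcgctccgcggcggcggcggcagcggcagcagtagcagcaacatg
Kcnmb1, chr11:33962763-33963012, plus strand: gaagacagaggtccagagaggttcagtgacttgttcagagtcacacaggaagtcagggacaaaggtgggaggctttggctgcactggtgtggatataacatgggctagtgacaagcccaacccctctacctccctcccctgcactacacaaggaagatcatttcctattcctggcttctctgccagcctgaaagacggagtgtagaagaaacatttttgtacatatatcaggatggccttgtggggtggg
The motifs searched on both strands were the CArG box of smooth muscle genes, GGAATG (core of the M-CAT element), GGGCGG (GC box) and TATAAA. Abcc9 held 1 GGAATG, found in 12.6% of 32851 promoters of this length, and 1 GGGCGG, found in 32.7%. Kcnma1 held 3 GGGCGG, a pair of which overlap. Kcnj8 and Kcnmb1 held no match, and no window held a CArG box (1.47% of promoters) or TATAAA (12.4%).

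Kcnj8 was carried by 4 classes. Lymphatic endothelial cells held 131, 127, 153 and 138 CPM (proximal 1, proximal 2, distal 1 and distal 2, the order used throughout). Ptn-Scg2 cells held 152, 139.6, 103 and 67.7, telocytes 103, 98.5, 63.6 and 62.2 and pericytes 48.5, 95.1, 59.5 and 124. The Ptn-Scg2 range overlapped each of the other 3, while telocytes and pericytes lay below every lymphatic library. Lymphatic endothelial cells exceeded Ptn-Scg2 cells in 2 of 4 libraries. The other classes were well below them, with 7.42 in myofibroblasts, 6.08 in blood endothelial cells, 1.15 in trophocytes, 0.884 in Adamdec1 fibroblasts, 0.846 in subepithelial fibroblasts and no UMI in glia. Free RNA, the UMIs of near-empty droplets, held 9.05 to 42.0 CPM. Kcnj8 was higher than in the other classes in lymphatic endothelial cells (adjusted p = 2.55e-23), Ptn-Scg2 cells (1.04e-17), pericytes (3e-14) and telocytes (3.64e-11).

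Abcc9 was higher in the same 4 classes but in another order. Its level was 885 ± 243 CPM in Ptn-Scg2 cells, 396 ± 122 in pericytes, 314 ± 119 in telocytes and 90.6 ± 10.1 in lymphatic endothelial cells. No lymphatic library reached the lowest library of the other 3 classes, while for Kcnj8 lymphatic endothelial cells had the highest mean. Kcnj11 and Abcc8, the pore and receptor of the pancreatic form, were at 0.979 and 2.40 in pericytes, their highest class.

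**Figure D3:**
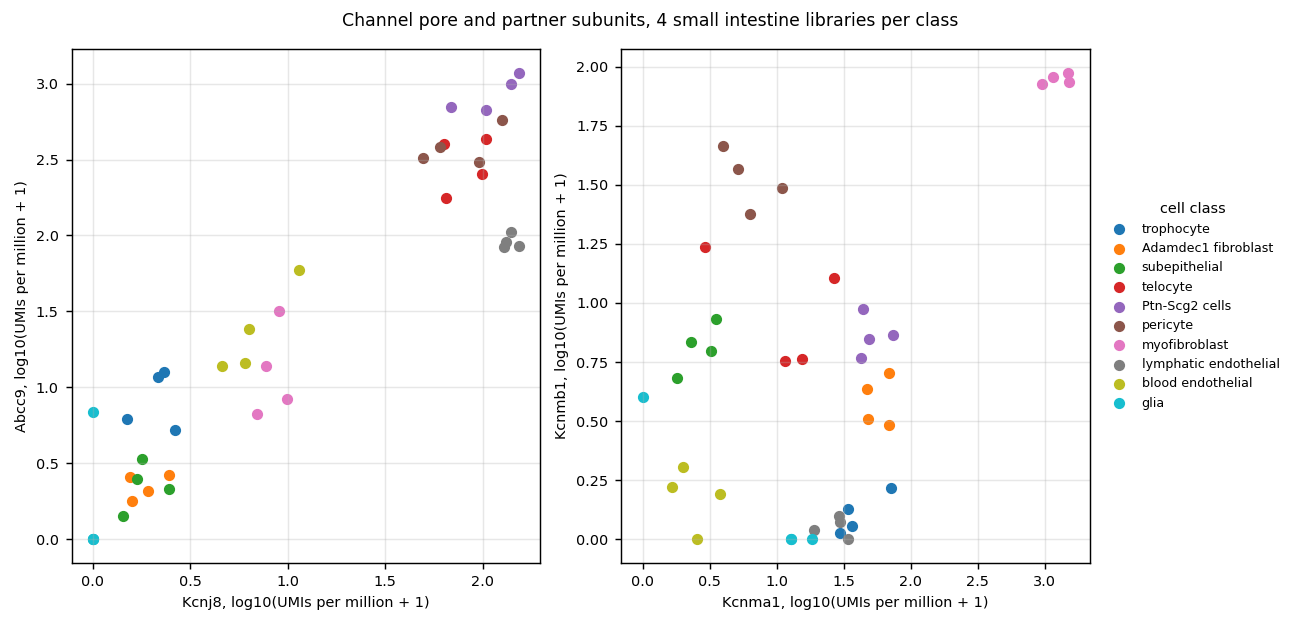
Left, Kcnj8 (x axis) against Abcc9 (y axis); right, Kcnma1 against Kcnmb1, each as log10 of CPM plus 1, with 1 point per small intestinal library and a color per cell class. Ptn-Scg2 cells, telocytes, pericytes and lymphatic endothelial cells lie at the right of the first panel, and the 4 myofibroblast points lie alone at the upper right of the second (1279 and 87.9 CPM on average).

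Kcnn3 (SK3, ENSMUSG00000000794, chromosome 3, 89427460 to 89582439, plus strand) had the highest level of any Kcn gene. SK channels open with small rises of calcium, and in the gut muscle layer SK3 is known for the hyperpolarization of PDGFRα+ cells by purines. Ptn-Scg2 cells, whose markers include Pdgfra, held 2921, 3079.7, 2149 and 2793 CPM. Lymphatic endothelial cells held 515, 664, 514 and 711, with no overlap, and the ratio of the means was 4.55. Trophocytes (359 ± 55.1), Adamdec1 fibroblasts (239 ± 113) and telocytes (161 ± 92.1) came next, each overlapping its neighbor in that order. Telocytes share the marker Pdgfra, at 2265 to 2595 CPM in the small intestine, beside 2125 to 2741 in Ptn-Scg2 cells. The other 5 classes ran from 15.6 in subepithelial fibroblasts to 55.7 in glia, beside a free RNA level of 142 to 317. Kcnn3 was higher over the other classes in Ptn-Scg2 cells by 4.95 ± 0.13 on the log2 scale (SE, adjusted p = 5.29e-27), and also in lymphatic endothelial cells (1.31e-18), trophocytes (3.34e-14) and Adamdec1 fibroblasts (1.44e-07).

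The other members of the SK family were low. Kcnn2 (SK2) was at 31.2 ± 11.1 CPM in pericytes, 26.5 ± 19.3 in glia and 13.9 ± 6.27 in myofibroblasts, and it was higher than in the other classes in these 3 and in Ptn-Scg2 cells (4.50). Kcnn1 (SK1) reached 3.10 in trophocytes and Kcnn4 (the intermediate conductance channel) 3.72 in glia, their highest means. P2ry1, a purine receptor that acts ahead of SK3 in the muscle layer, was at 143 ± 14.2 in subepithelial fibroblasts, 106 ± 9.49 in Adamdec1 fibroblasts and 86.7 ± 19.9 in Ptn-Scg2 cells.

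Kcnma1 (ENSMUSG00000063142, chromosome 14, 23339499 to 24064559, minus strand), the BK pore, was highest in myofibroblasts. Myofibroblasts held 1498, 1149, 951 and 1519 CPM and Adamdec1 fibroblasts, the next class, 46.7, 46.8, 68.2 and 68.6. The ranges did not overlap, the ratio of the means was 22.2, and Kcnma1 was higher in myofibroblasts than in the other classes with adjusted p = 1.97e-31. Pericytes held 5.60 ± 3.05. Kcnmb1 (ENSMUSG00000020155, chromosome 11, 33890243 to 33923641, plus strand), which raises the calcium sensitivity of BK, was at 93.3, 89.5, 83.2 and 85.5 in myofibroblasts and 36.0, 45.0, 29.8 and 22.8 in pericytes. For the auxiliary subunit, myofibroblasts over pericytes gave a mean of 1.44 on the log2 scale over libraries (2.63-fold by the means). For the pore, the fitted change of pericytes over myofibroblasts was -8.17 on the same scale (SE 0.33). Kcnmb4, another BK auxiliary subunit, was at 30.9 ± 9.69 in myofibroblasts and 28.7 ± 9.69 in telocytes, which overlapped. Kcnmb2 was at 14.0 ± 1.71 in lymphatic endothelial cells and at most 1.03 elsewhere, and the highest mean of Kcnmb3 was 0.983.

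Kcnt2, a channel opened by sodium, was at 284, 243, 298 and 275 CPM in pericytes and 297, 308, 187 and 242 in trophocytes, which overlapped. Adamdec1 fibroblasts (223, 239, 82.7 and 157) overlapped trophocytes and lay below every pericyte library. Subepithelial fibroblasts held 12.2 ± 3.13. Its relative Kcnt1 was at 29.1, 22.9, 24.8 and 17.5 in pericytes, above every library of Ptn-Scg2 cells (1.87 to 10.9), the next class.

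Among the two-pore channels, Kcnk2 (TREK-1, opened by stretch and lipids; ENSMUSG00000037624, chromosome 1, 188940126 to 189134470, minus strand) was at 337, 406, 574 and 698 CPM in Adamdec1 fibroblasts. Telocytes held 204, 224, 222 and 428 and trophocytes 90.5, 94.1, 199 and 258. Adamdec1 fibroblasts were highest within each library, although the ranges overlapped across libraries, and the rise over the other classes had adjusted p = 1.46e-22. Kcnk5 (TASK-2; ENSMUSG00000023243, chromosome 14, 20190125 to 20231900, minus strand) was at 309, 327, 332 and 329 in lymphatic endothelial cells, far above glia (56.0 ± 11.6) and blood endothelial cells (48.1 ± 12.4), and at most 5.49 elsewhere (adjusted p = 7.27e-31), beside a free RNA level of 7.14 to 99.5. Kcnk3 (TASK-1, closed by acid) was at 155, 113, 95.1 and 93.5 in myofibroblasts and 71.8, 86.8, 91.9 and 52.7 in telocytes, without overlap, and at most 9.53 elsewhere. Kcnk6 in blood endothelial cells (30.4 ± 8.56) and Kcnk13 in glia (27.9 ± 11.6) were next among two-pore genes, and Kcnk1 reached 8.45 ± 2.05 in subepithelial fibroblasts and 7.35 ± 4.50 in telocytes.

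**Figure D4:**
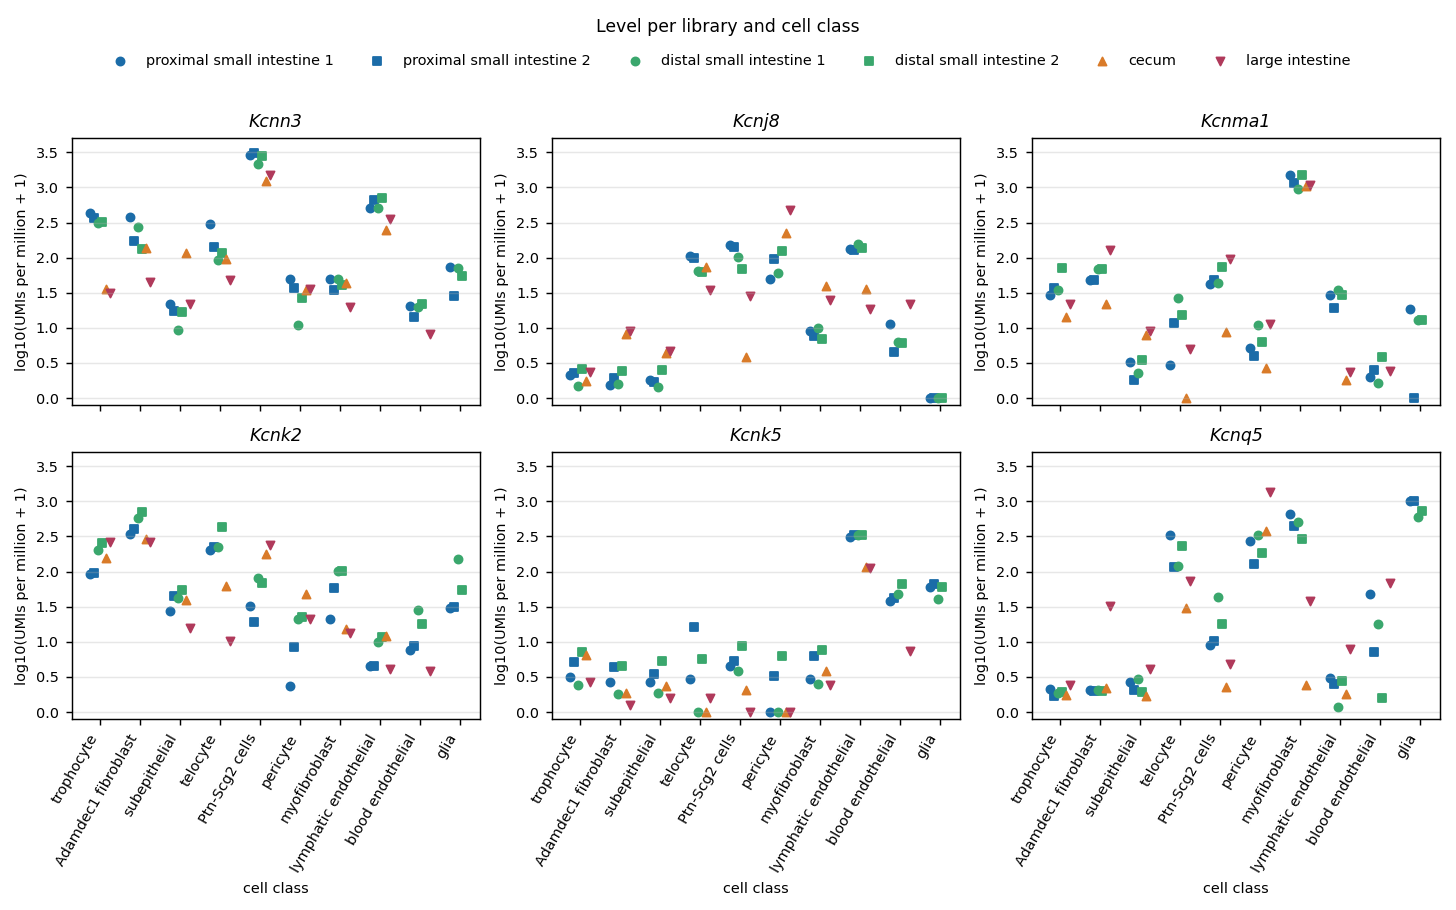
Levels of 6 Kcn genes in each cell class (x axis) and library (1 point each, colors and shapes for libraries), as log10 of CPM plus 1 (y axis); sums of under 20 cells have no point. Kcnn3 is highest in Ptn-Scg2 cells, Kcnma1 in myofibroblasts and Kcnk5 in lymphatic endothelial cells in all 6 libraries, and for Kcnq5 the cecum and large intestine points lie below the small intestine in myofibroblasts and above it in pericytes.

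Several voltage-gated genes were high in glia, the support cells of enteric nerves, and low in the other classes. The Shaker-type genes Kcna1 (1173, 1092, 778 and 854 CPM), Kcna2 (883, 731, 499 and 551) and Kcna6 (259.8, 289, 216 and 207) reached at most 0.667, 17.7 and 1.94 in any other class. Kcnh8, of the ELK type, was at 153, 232, 122 and 207 in glia, where the inward rectifiers Kcnj10, which buffers potassium around nerves, and Kcnj12 were at 37.4 ± 15.3 and 26.9 ± 8.99. Kcnd2 (Kv4.2) in glia came mostly from the library of distal replicate 2 (34.6, 15.0, 23.6 and 314). Kcna5 lies 105 kb from Kcna1 on chromosome 6, with Kcna6 61.9 kb beyond Kcna1. Kcna5 was at 105, 95.1, 39.7 and 61.8 in pericytes and 27.2 ± 11.5 in blood endothelial cells, with adjusted p = 6.06e-25 for pericytes over the other classes.

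The M-type channels open near the resting voltage. Kcnq5 (ENSMUSG00000028033, chromosome 1, 21468627 to 22032166, minus strand) was at 995, 1014, 594 and 735 CPM in glia and 666, 438, 504 and 287 in myofibroblasts, which overlapped. Pericytes held 272, 127, 328 and 185 and telocytes 330.5, 114, 120.2 and 227. It was higher over the other classes in these 4 (largest adjusted p = 1.13e-12) and at 1.40 or less in subepithelial fibroblasts, lymphatic endothelial cells, Adamdec1 fibroblasts and trophocytes. Kcnq3 was at 87.8, 95.2, 107 and 143 in Ptn-Scg2 cells, and at most 0.891 elsewhere (adjusted p = 9.54e-22). Kcnq1, which in epithelia works with the auxiliary subunit Kcne3, was at 92.5, 103, 75.5 and 86.9 in blood endothelial cells and at most 0.989 elsewhere, and Kcne3 was at 12.0 ± 2.09 in the same class and at most 0.938 elsewhere.

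Ptn-Scg2 cells held further genes. Kcng4, a silent subunit that modifies other voltage-gated channels, was at 77.1, 76.6, 50.4 and 44.5 CPM and next highest in telocytes (5.65 ± 3.00). Kcnh7, of the ERG type, was at 39.2, 33.4, 46.6 and 21.2 and at most 0.549 elsewhere, and its mean was 17.4 when 4 markers instead of 3 were asked of a cell. Its relative Kcnh2 was at 44.3 ± 8.34 here and 44.3 ± 15.0 in myofibroblasts, which overlapped. Kcnj5, an inward rectifier gated by G proteins, was at 40.0, 33.9, 24.2 and 24.7, above subepithelial fibroblasts (11.9, 12.1, 7.34 and 12.9) in every library.

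In subepithelial fibroblasts, which lie beneath the epithelium, Kcns3, a silent subunit, gave 17.2 ± 1.61% of the pore-forming Kcn UMIs. It was at 49.2 ± 9.30 CPM in subepithelial fibroblasts and 51.5 ± 13.7 in myofibroblasts, and the calcium sensor Kcnip3 at 30.1 ± 5.15 and 36.4 ± 13.0. Both pairs overlapped.

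Auxiliary subunits were led by Kcnab1, a Kv beta subunit, at 517, 629, 149 and 394 CPM in pericytes, 206, 76.2, 84.8 and 40.7 in telocytes and 122, 64.4, 104 and 46.0 in trophocytes. Kcne4, which dampens several voltage-gated channels, was at 149 ± 42.1 in pericytes and 119.9 ± 42.5 in Ptn-Scg2 cells. Kcnip1, a partner of Kv4 pores, was at 80.6 ± 32.4 in Ptn-Scg2 cells, where the Kv4 pores Kcnd2 and Kcnd3 were at 0.204 and 2.81. The Kcnip1 gene overlaps Kcnmb1 on the opposite strand. The antisense RNA Kcnq1ot1, known for silencing genes of its imprinted region, ran from 71.5 ± 27.8 in glia to 353 ± 23.1 in Ptn-Scg2 cells, beside a free RNA level of 99.7 to 128. It lies within Kcnq1 and was not highest where Kcnq1 was.

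Like classes were then compared directly in the same fit. Between pericytes and myofibroblasts, both contractile, 12 of 50 members were higher in pericytes (17.7% of all genes were) and 15 in myofibroblasts (21.4%, and 39.1% differed either way). The median pericyte had UMIs of 4 of the 7 myofibroblast markers. Kcnh1 (EAG1) was at 67.9, 44.3, 69.5 and 50.6 CPM in pericytes with no UMI in myofibroblasts, at least 113-fold higher against a floor of 3 UMIs over the group. Kcnj2, a strong inward rectifier, had 39 UMIs in pericytes and none in myofibroblasts, at least 18.7-fold higher by the same floor. Kcna5 had 351 UMIs in pericytes and 1 in 6507770 UMIs of myofibroblasts. Higher in myofibroblasts were Kcnma1 (adjusted p = 3.76e-20), Kcnmb4 (pericytes over myofibroblasts -4.92 ± 0.55 on the log2 scale) and the voltage-gated pore Kcnb2, with 39 UMIs against none in pericytes, at least 9.01-fold. The call of Kcnb2 was lost with doublets kept (adjusted p = 0.0985).

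Between telocytes and subepithelial fibroblasts 15 members were higher in telocytes (14.0% of all genes) and 5 lower (12.1%), 20 in all (26.2%). The median telocyte had UMIs of 5 of the 10 subepithelial markers. Kcnh1 (7.22 ± 0.51 on the log2 scale), Kcnq5 (7.21 ± 0.50) and Kcnj8 (6.60 ± 0.43) were higher in telocytes. Kcnj5 had no UMI in telocytes and was at least 10.6-fold higher in subepithelial fibroblasts. Kcnu1, a channel known from sperm, was at 5.97 against 1.65 CPM (adjusted p = 0.0236), and its call was lost without proximal replicate 1 or distal replicate 1 and in 3 of the other alternatives (largest adjusted p = 0.184).

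Subepithelial fibroblasts over trophocytes gave 11 members higher (31.3% of all genes) and 15 lower (33.7%), 26 in all (65.0%). Kcnj5 (6.95 ± 0.35 on the log2 scale), Kcnk1 (5.76 ± 0.31) and Kcnk3 (5.46 ± 0.43) were higher, and Kcnn3 (-4.84 ± 0.27), Kcnma1 (-4.83 ± 0.28) and Kcnt2 (-4.70 ± 0.35) lower. Adamdec1 fibroblasts over trophocytes gave 11 higher (17.5%) and 11 lower (20.4%), 22 in all (37.9%). The median Adamdec1 fibroblast had UMIs of 3 of the 6 trophocyte markers, and the median trophocyte of 3 of the 5 Adamdec1 fibroblast markers. Here Kcnip3 (2.37 ± 0.21) and Kcnk2 (1.58 ± 0.20) were higher, and Kcnab1 (-2.76 ± 0.24), Kcnq1ot1 (-0.93 ± 0.09) and Kcnt2 (-0.78 ± 0.28) lower. Kcnk2 missed the threshold with all 6 libraries fitted (adjusted p = 0.0774). Kcnt2 missed it in 7 of 12 alternatives, among them without proximal replicate 2, distal replicate 1 or distal replicate 2 (largest adjusted p = 0.185).

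Lymphatic over blood endothelial cells gave 9 members higher (29.8% of all genes) and 14 lower (29.3%), 23 in all (59.1%). Kcng2, a silent subunit (5.34 ± 0.42 on the log2 scale), and Kcnn3 (5.07 ± 0.29) were higher in lymphatic cells, as was Kcnmb2, with 1392 UMIs against 3 in 10148475 UMIs of blood endothelial cells. Kcnq1 (-6.57 ± 0.25) and Kcnh1 (-7.65 ± 0.41) were higher in blood endothelial cells, as was Kcnj2, the classical endothelial inward rectifier, with 115 UMIs against 2 in 102525449 UMIs of lymphatic cells. Kcnj15 was higher over the other classes in both, at 16.1 ± 4.77 in blood and 5.64 ± 1.70 in lymphatic endothelial cells.

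Large bowel and small intestine were compared within the 8 classes with at least 20 cells in each of 6 libraries, as the mean of cecum and large intestine against the mean of the proximal and distal regions. The single cecum and large intestine libraries were assumed to vary like the small intestinal ones, which leaves 2 residual degrees of freedom. In a sum over cells, fewer cells of a type and less RNA per cell cannot be told apart. Of the members tested, 3 were higher and 14 lower of 31 in Ptn-Scg2 cells (19.2% and 16.1% of all genes), 8 and 8 of 44 in Adamdec1 fibroblasts (13.6% and 12.5%), 7 and 6 of 37 in subepithelial fibroblasts (18.4% and 18.3%), 2 and 7 of 43 in trophocytes (6.71% and 8.87%), 1 and 5 of 21 in telocytes (5.76% and 4.60%), 4 and 6 of 21 in pericytes (5.51% and 5.17%), 3 and 7 of 25 in myofibroblasts (5.99% and 6.03%) and 0 and 6 of 31 in lymphatic endothelial cells (6.62% and 9.59%). In the same order of classes, the share of all genes called in either direction was 35.3%, 26.1%, 36.7%, 15.6%, 10.4%, 10.7%, 12.0% and 16.2%. The members' share was 54.8% in Ptn-Scg2 cells and 47.6% in pericytes, and 35.1% in subepithelial fibroblasts. In lymphatic endothelial cells 2 of 31 members (6.45%) were higher at an unadjusted p under 0.05 by edgeR, as were 14.1% of all genes. The telocyte count of 6 rests on both proximal libraries, being 1 without proximal replicate 1 and 0 without proximal replicate 2, and was 3 without the large intestine. Without the large intestine, 4 members were called in pericytes and 4 in myofibroblasts, against 10 in each, and without the cecum 5 in trophocytes against 9 and 7 in subepithelial fibroblasts against 13. Shares of all genes with a library left out are not given. The median log2 change of the members tested was -1.07 in Ptn-Scg2 cells, -1.11 in telocytes and -0.75 in lymphatic endothelial cells, and between -0.50 and -0.12 in the other 5 classes. The median change of all genes was -0.14 on the log2 scale in trophocytes and nearer to 0 in the other classes.

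Marker genes moved with region as well. In Ptn-Scg2 cells Scg2 was at 0 and 0.960 CPM in cecum and large intestine against 14.8 to 656 in the small intestine, and the summed level of the 5 markers was 2856 and 3755 against 4661 to 6745. In telocytes the 8 markers summed to 6230 and 6473 against 9471 to 12037, with 4 below the range in both libraries and 2 above it. Those above were Foxl1 (116 and 93.6 against 50.8 to 78.6) and Bmp7 (254 and 237 against 179 to 235). In trophocytes Dkk2 was at 4.38 and 23.9 against 519 to 856, with the sum of 6 markers at 4288 and 5086 against 4864 to 5296. In Adamdec1 fibroblasts Vwc2 was at 3.64 and 0.553 against 414 to 633, while 4 of 5 markers lay above the range. The sum of the 5 markers was 12443 and 11078 against 7800 to 10739. In subepithelial fibroblasts Lrat was at 1.33 and 1.22 against 422 to 826, and Frmd5, Il34 and Itga8 were also below the range. Above it were Procr (196 and 188 against 28.8 to 32.1) and Agt (648 and 546 against 93.9 to 140). Wnt4 was above it as well (1046 and 641 against 435 to 481). In lymphatic endothelial cells all 8 markers lay outside the small intestinal range in both large bowel libraries, 5 below and 3 above, with Reln at 2071 and 1996 against 4186 to 4884, Flt4 at 782 and 741 against 1060.4 to 1277 and Ccl21a at 11319 and 11209 against 2233 to 4017. The 6 pericyte markers summed to 7261 and 10185 against 7106 to 10995, but Notch3, which the class requires, was at 968 and 919.7 against 1384 to 1839. The 7 myofibroblast markers summed to 24555 and 19139 against 17772 to 23513, with Acta2 above the range (13526 and 10694 against 6332 to 7621), and Hhip (1829.7 and 1768 against 3452 to 6240.1) and Des (552 and 297 against 746 to 1313) below it. Cells close to the class boundary, within 0.05 above the margin that admits a cell, were also more frequent in some large bowel classes. They were 172 of 366 subepithelial fibroblasts in the cecum and 101 of 161 in the large intestine, against 150 of 1024, 136 of 791, 127 of 613 and 245 of 1067 in the small intestine. Among trophocytes they were 218 of 423 in the cecum and 96 of 361 in the large intestine, against 446 of 3602, 236 of 2346, 719 of 5476 and 245 of 1692. These cells were left out by a wider margin of 0.15, an alternative added after seeing the data. In subepithelial fibroblasts 8 of 34 members were then called (23.5%, beside 31.3% of all genes), against 13 before. All 8 were among the 13 and kept their direction, while Kcne4, Kcnj5, Kcnj8 and Kcnmb4 no longer passed and Kcnh1 had too few counts to be tested. In trophocytes 7 of 41 were called (17.1%, beside 10.2% of all genes), all among the earlier 9. In telocytes 10 of 21 were called (47.6%, beside 14.1%) against 6. The part of the marker shifts in the changes below was not tested.

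Kcnj8 moved in opposite directions. In pericytes it was at 225 and 469.6 CPM in cecum and large intestine, above all small intestinal libraries (48.5 to 124), a rise of 1.92 ± 0.28 on the log2 scale (adjusted p = 0.0011). In Ptn-Scg2 cells it was at 2.87 and 27.7, below 67.7 to 152 (-3.49 ± 0.25, adjusted p = 2.23e-06), and in lymphatic endothelial cells at 35.2 and 17.5, below 127 to 153 (-2.51 ± 0.15, adjusted p = 0.000199). It was also higher in Adamdec1 fibroblasts (7.29 and 7.98 against 0.554 to 1.47), myofibroblasts (37.9 and 23.7 against 5.99 to 8.91) and, at low levels, subepithelial fibroblasts (3.34 and 3.67 against 0.432 to 1.47), a call lost with the wider margin. Abcc9 moved the same way as Kcnj8 in these 6 classes, to 479 and 845 from 305 to 572 in pericytes, where the cecum lay within the range (0.74 ± 0.21, adjusted p = 0.0398), and to 15.2 and 11.8 from 82.9 to 105 in lymphatic endothelial cells (-2.81 ± 0.19, adjusted p = 0.000298).

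Kcnq5 was nearly lost from myofibroblasts of the large bowel, at 1.40 and 37.0 CPM against 287 to 666 (-5.88 ± 0.44 on the log2 scale, adjusted p = 9.77e-06). In pericytes it was at 374 and 1342 against 127 to 328 (1.75 ± 0.28, adjusted p = 0.00219), a call lost without the large intestine and by DESeq2 (largest adjusted p = 0.235). In telocytes it was at 29.6 and 73.6 against 114 to 330.5 (adjusted p = 0.0348), a call lost without either proximal library, without the cecum, without the large intestine and with free RNA subtracted (largest adjusted p = 0.199). Adamdec1 fibroblasts held 31.7 in the large intestine alone, against 1.24 in the cecum and 0.970 to 1.05 in the small intestine.

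Kcnn3 remained the highest Kcn gene of Ptn-Scg2 cells, at 1244 and 1491 CPM in the large bowel against 2149 to 3079.7 (-0.86 ± 0.21 on the log2 scale, adjusted p = 0.00776). In trophocytes it was at 34.7 and 30.6 against 309 to 433 (-3.38 ± 0.19, adjusted p = 0.000171). It was lower as well in lymphatic endothelial cells (250.2 and 351 against 514 to 711) and higher in subepithelial fibroblasts, where the cecum held 115 and the large intestine 20.8, inside the small intestinal range of 8.42 to 21.2. P2ry1 was higher in Ptn-Scg2 cells of the large bowel, at 351 and 522 against 69.9 to 114 (2.44 ± 0.19, adjusted p = 4.1e-06). Kcnn2 was higher there too, at 10.7 and 55.8 against 0.547 to 9.33, a call lost without the large intestine and by DESeq2 (largest adjusted p = 0.222).

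Kcnk2 was higher in Ptn-Scg2 cells of the large bowel, at 178 and 238 CPM against 18.1 to 80.2 (2.37 ± 0.19 on the log2 scale, adjusted p = 4.59e-06). In Adamdec1 fibroblasts, its highest class in the small intestine, it was at 288 and 263, below every small intestinal library (337 to 698). In telocytes it was lower, at 61.1 and 9.12 against 204 to 428 (-3.40 ± 0.30, adjusted p = 0.000928 and 0.117 without proximal replicate 2). In myofibroblasts it was at 14.0 and 12.6 against 20.0 to 99.5, a call lost without distal replicate 2 or the large intestine (largest adjusted p = 0.0841). In trophocytes a rise of 0.55 ± 0.14, with 153 and 264 in cecum and large intestine against 90.5 to 258, was lost in 6 of 14 alternatives, among them without either proximal library or the large intestine (largest adjusted p = 0.599). Kcnk5 in lymphatic endothelial cells, whose markers also shifted, was at 116 and 113 against 309 to 332 (-1.56 ± 0.14, adjusted p = 0.000869). Kcnk3 in pericytes was at 44.9 and 35.3 against 4.16 to 13.9 (adjusted p = 0.00609 and 0.144 by DESeq2). Kcnk1 in subepithelial fibroblasts was at 0 and 3.06 against 5.58 to 10.2, a call lost without the cecum (0.153), and Kcnk13 in Ptn-Scg2 cells at 3.92 and 7.84 against 0 to 7.76, lost without distal replicate 1, without the large intestine and in 4 of the other alternatives (largest adjusted p = 0.307).

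Kcnd3 (Kv4.3, a pore of fast transient currents) was higher in 4 classes of the large bowel. It was at 159 and 71.1 CPM in telocytes against 15.3 to 37.5, 91.1 and 64.2 in myofibroblasts against 2.67 to 14.6, 23.7 and 12.2 in subepithelial fibroblasts against 0 to 1.04 and 9.69 and 17.6 in Adamdec1 fibroblasts against 0.166 to 0.476. Both large bowel libraries were above all small intestinal ones in each of these classes. The fitted rise was 5.64 ± 0.30 on the log2 scale in Adamdec1 fibroblasts and 2.30 ± 0.30 in telocytes, where the call was lost without either proximal library (largest adjusted p = 0.0885). Kcnd2, its close relative, was at 53.7 and 16.7 in Adamdec1 fibroblasts against 0.323 to 3.46 (4.90 ± 0.24, adjusted p = 6.42e-05).

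**Figure D5:**
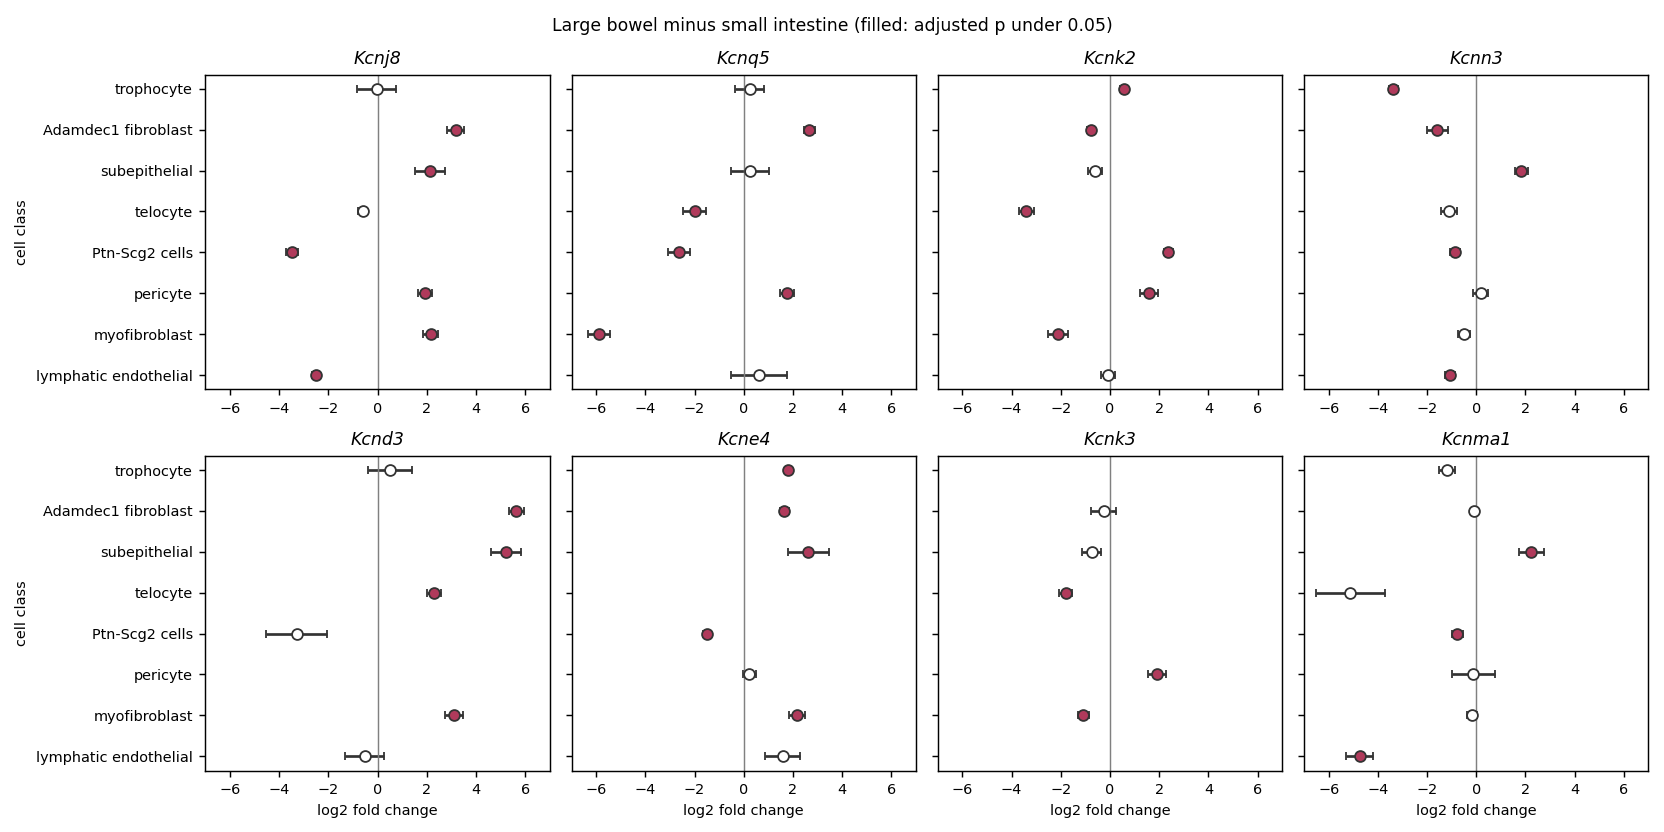
Log2 fold change of 8 Kcn genes between large bowel and small intestine (x axis, positive is higher in the large bowel) in the cell classes where each was tested (y axis). Bars are 1 SE, derived from the F value of edgeR, and points are filled at an adjusted p under 0.05. Kcnj8 lies to the right in pericytes (1.92 ± 0.28) and to the left in Ptn-Scg2 cells (-3.49 ± 0.25), and the 4 filled points of Kcnd3 all lie to the right.

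Further voltage-gated and auxiliary genes changed in some classes. In Ptn-Scg2 cells Kcnh7 had 3 UMIs in 10078360 UMIs of the large bowel and 287 in the small intestine, and Kcna2 none against 92, at least 38.4-fold lower by a floor of 3 UMIs. In pericytes Kcna2 had 1 UMI in 2556252 against 85, Kcnt1 was at 3.33 and 1.02 CPM against 17.5 to 29.1 and Kcnab1 at 84.8 and 116 against 149 to 629. The calls of Kcna2 (0.0637) and Kcnt1 (0.0674) in pericytes were lost without the large intestine. In telocytes Kcnab1 was at 7.56 and 8.17 against 40.7 to 206, lost without either proximal library (largest adjusted p = 0.107). Kcne4 was at 52.2 and 30.0 against 10.5 to 14.1 in trophocytes (1.81 ± 0.13 on the log2 scale) and 99.5 and 49.6 against 7.52 to 22.7 in myofibroblasts. In subepithelial fibroblasts it was at 13.3 and 1.22 against 0.337 to 1.04, a call lost without the cecum, without either distal library and in 2 of the other alternatives, and with the wider margin the change was -0.54 (adjusted p = 0.863). Kcnma1 in lymphatic endothelial cells was at 0.799 and 1.32 against 18.1 to 33.1 (-4.74 ± 0.54, adjusted p = 0.00257), while in myofibroblasts Kcnma1 (1061 and 1065 against 951 to 1519) did not pass.

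In Adamdec1 fibroblasts of the large bowel Kcnt2 (18.8 and 47.1 CPM against 82.7 to 239) and Kcnip1 (3.03 and 4.67 against 10.3 to 14.4) were lower, with both large bowel libraries below all of the small intestine. Kcns3 in trophocytes was at 2.92 and 10.8 against 10.0 to 14.3, lost in 7 of 14 alternatives, among them without the cecum or either proximal library (largest adjusted p = 0.804). Kcnt2 in myofibroblasts was at 2.80 and 13.3 against 14.0 to 34.6, lost in 8 of 14, among them without the cecum, the large intestine or either distal library (0.340). In subepithelial fibroblasts Kcnh1 was at 1.33 and 9.79 against 0 to 0.432 (adjusted p 0.0508 without distal replicate 1), and it was not tested with the wider margin. Kcnj5 there was at 11.0 and 0 against 7.34 to 12.9, a fall that rests on the large intestine library, since without it the change was 0.15 on the log2 scale (adjusted p = 0.778).

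Between proximal and distal small intestine, with 2 libraries each, 2 calls were made over the 8 classes, both of Kcnk2. With the replicate number as a block, 21 were made in 221 tests of members (9.50%), beside 1.86% of the tests of all genes in these fits, and libraries of the same number carry the same hashtags. In Adamdec1 fibroblasts 7 of 38 members were then called (18.4%, beside 3.17% of all genes). With the block 5 of 41 were called in trophocytes (3.46% of all genes) and 4 of 23 in Ptn-Scg2 cells (1.95%). The count was 1 of 29 in subepithelial fibroblasts (1.45%), 1 of 18 in pericytes (0.777%) and 1 of 22 in myofibroblasts (0.664%). It was 2 of 37 in lymphatic endothelial cells (1.68%) and 0 of 13 in telocytes (0.0238%). The results that follow are without the block. Kcnk2 was lower in proximal trophocytes (90.5, 94.1, 199 and 258 CPM in proximal 1, proximal 2, distal 1 and distal 2; -1.30 ± 0.17 on the log2 scale, adjusted p = 0.0442) and proximal Ptn-Scg2 cells (31.4, 18.1, 80.2 and 67.0; -1.52 ± 0.26, adjusted p = 0.0364). The proximal and distal values did not overlap. In these classes 0.137% and 0.210% of all genes were lower, 0.154% and 0.0546% higher, and 0.291% and 0.265% either. The trophocyte call was lost without either proximal library, by limma-voom and with doublets kept (largest adjusted p = 0.341). The Ptn-Scg2 call was lost without proximal replicate 2 or either distal library and in 4 of the other alternatives (0.544), and with the wider margin (0.0970). In Adamdec1 fibroblasts no member passed by edgeR (0.0368% of all genes were higher and 0.0245% lower, 0.0613% in all), and at an unadjusted p under 0.05 there were 5 higher and 5 lower of 44 (1.85% and 2.39% of all genes). Nor did any pass in subepithelial fibroblasts, telocytes, pericytes, myofibroblasts or lymphatic endothelial cells, where 6 of 37, 3 of 21, 6 of 21, 4 of 25 and 2 of 31 members had an unadjusted p under 0.05. Of all genes 3.53%, 3.84%, 3.63%, 4.65% and 3.99% did, in the same order. After adjustment 0.00920% of all genes were called in telocytes, all lower, and in myofibroblasts 0.0174% were higher and 0.0698% lower, 0.0872% in all, with none in the other 3 classes. Over the 8 classes DESeq2 made 5 calls of members and limma-voom 1, with no share of all genes given for either.

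Of 29 other genes that work with potassium channels, 24 were tested between classes. Of these, 16 were higher in Ptn-Scg2 cells over the other classes (26.6% of all genes were), 13 in telocytes (17.1%), 12 in pericytes (23.6%), 12 in myofibroblasts (23.6%), 10 in trophocytes (35.0%), 8 in Adamdec1 fibroblasts (33.2%), 6 in subepithelial fibroblasts (31.9%), 6 in lymphatic endothelial cells (36.6%), 6 in blood endothelial cells (32.2%) and 5 in glia (14.9%). The L-type calcium channel Cacna1c, whose opening potassium channels restrain, was at 1739 ± 208 CPM in pericytes and 846 ± 229.5 in myofibroblasts. Its beta subunit gene Cacnb2 was at 1383 ± 186 in pericytes, 947 ± 161 in Ptn-Scg2 cells and 610.0 ± 182 in telocytes, which also held Kcnj8 and Abcc9. The calcium-activated chloride channel Ano1 was at 634 ± 114 in pericytes and 91.5 ± 24.4 in telocytes. Gap junction genes were Gja1, at 373 ± 26.3 in subepithelial fibroblasts and 314 ± 11.1 in telocytes, and Gja4, at 236 ± 31.5 in pericytes and 75.4 ± 26.9 in lymphatic endothelial cells.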

How the data were processed

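Single-cell RNA-seq of sorted tdTomato+ lamina propria cells was deposited by the authors as raw UMI counts per gene and droplet for 6 libraries. Per the labels these were aligned to mm39 with tdTomato added, using Cell Ranger 8.1.0, while the matrix headers name 8.0.1. A droplet was taken as a cell if it held between 2500 and 40000 UMIs from between 1000 and 7500 genes, with mitochondrial genes giving less than 10%, and Scrublet doublets (0.8% per 1000 cells) were removed, 4.91 to 11.4% per library. Free RNA was not subtracted, and its share within cells was not estimated. The droplets of at most 100 UMIs that gave its profile held 2.90 to 3.82% of all gene UMIs of a library. Median depth was 6606.5 to 9233 UMIs per cell, and the spread between sums per class and library, not between cells, gives the errors. Cells were assigned to a class when its mean scaled marker level exceeded that of each other class by 0.1 and at least 3 of its markers were present. Trophocytes also needed Ackr4, Adamdec1 fibroblasts Adamdec1, Ptn-Scg2 cells Ptn and Pdgfra, and pericytes Notch3, which myofibroblasts had to lack, with caps on markers of other fibroblasts. Thresholds were set after seeing the data, and 7008 cells lay within 0.05 inside and 7001 within 0.05 outside the margin, unevenly between regions. UMIs were summed per class and library, with at least 20 cells. Hashtags were not used to split libraries.

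Sums were tested with edgeR 4.0.16 (R 4.3.3; TMM scaling, filterByExpr with a minimum count of 10, Benjamini-Hochberg over all genes tested, threshold 0.05). The fit across classes gave no F value for 1167 gene and class contrasts, 41 of them of members, which were not called. The alternatives were limma-voom (limma 3.58.1), DESeq2 1.42.0, no filter, 10% free RNA subtracted, a gate of 4 markers, doublets kept, a margin of 0.15, other blocks and leaving out each library. The test code was tested on simulated data. Named genes were, by rule, up to 5 members with the largest rise per class, up to 3 per direction in each paired or regional comparison (both with at least 5 CPM), members with at least 50, and all subunits of the ATP-sensitive, BK and SK channels. Kcnj12, Kcnk6, Kcnk15, Kcnk16, Kcnv1 and P2ry1 were named after their values were seen. The naming rule did not cover Cacna1c, Cacnb2, Ano1, Gja1 and Gja4 either, whose levels are also given. Results of some members are not reported here, though counts over the members include them. The members and lists were chosen with earlier results of these data known.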

Additional observations from a re-analysis of the deposited data

Results flagged for a closer look

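Each of 46 groups of 4 small intestinal libraries behind a named level was checked for a library far from the others (a gap to the nearest library over Dixon's critical share of the range), which chance alone gives in about 1 in 20 groups. There were 2 such groups, both in glia, the class with the fewest cells. Kcnj10 was at 60.2 CPM in proximal replicate 2 and 27.5 to 32.2 in the other 3 libraries. Kcnd2 was at 314 in distal replicate 2 and 15.0 to 34.6 in the others.

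For 10 members called higher in the large bowel in one class and lower in another, the difference between the 2 changes was tested with an interaction term (edgeR, 1 fit over 8 classes and 6 libraries, adjusted over 15351 genes), an alternative added after seeing the data. The share of all genes with such opposite calls is not given, so the count of 10 shows no trait of these members. Member and pair of classes were picked for opposite calls in the same counts, so a difference was to be found from the start. Adjusting over genes does not account for this choice, and the adjusted p-values are no separate evidence. Unlike the fit per class, this fit took cecum and large intestine as replicates of each other, and likewise the proximal and distal libraries. Kcnq5 differed on the log2 scale by 8.20 ± 0.71 (SE) between Adamdec1 fibroblasts and myofibroblasts (adjusted p = 1.79e-09), where the Adamdec1 rise rests on the large intestine library (31.7 CPM, against 1.24 in the cecum and 0.970 to 1.05 in the small intestine). Kcnma1 differed by 7.30 ± 1.33 between subepithelial fibroblasts and lymphatic endothelial cells (0.000128). Kcnj8 differed by 5.81 ± 0.66 between Adamdec1 fibroblasts and Ptn-Scg2 cells (1.49e-07), Kcnk2 by 5.60 ± 0.61 between Ptn-Scg2 cells and telocytes (8.4e-08) and Kcnn3 by 5.57 ± 0.60 between subepithelial fibroblasts and trophocytes (3.47e-08). Kcnn2 differed by 4.92 ± 0.85 between Ptn-Scg2 cells and pericytes (0.000446), Kcne4 by 4.88 ± 0.94 between subepithelial fibroblasts and Ptn-Scg2 cells (0.000321), and Kcnk3 by 3.61 ± 0.57 between pericytes and telocytes (0.000106). Kcnmb4 differed by 3.57 ± 0.67 between subepithelial fibroblasts and myofibroblasts (0.000444) and Kcnj5 by 3.02 ± 0.65 between Adamdec1 fibroblasts and subepithelial fibroblasts (0.00163). The Kcnj5 fall rests on the large intestine library, and without it the subepithelial change was 0.15, so no opposite direction is left. With a wider margin between classes (0.15 in place of 0.1), added after seeing the data, the subepithelial changes of Kcne4, Kcnmb4 and Kcnj5 no longer passed, and that of Kcne4 was -0.54. Single libraries also carry the subepithelial rises of Kcnn3 and Kcne4 (cecum) and Kcnmb4 (large intestine). The calls behind the differences of Kcnn2 (Ptn-Scg2 cells), Kcne4 (subepithelial fibroblasts), Kcnk3 (pericytes) and Kcnk2 (telocytes) were lost in 2, 5, 1 and 1 alternatives.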

How the results depend on the processing

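Of 124 tests of named genes, 100 stayed past the threshold in every alternative and 24 were lost in some, each of them named in the report. Of 1565 such values, 1484 kept direction and call, 80 lost the call and 1 reversed, that for Kcnj5, subepithelial: large bowel over small intestine. This change was 0.15 on the log2 scale without the large intestine library and -9.22 without the cecum library, where the only large bowel library had no UMI and the fitted value is no bound. Of 297 counts of called members under alternatives, 272 stayed within 1.5 times. Among the alternatives, shares of all genes are given only for the replicate block and, for some classes, the wider margin. Whether the other counts moved more than those of all genes cannot be told from them. Limma-voom called 23 members in glia against 15, 33 between telocytes and subepithelial fibroblasts against 20, 35 between lymphatic and blood endothelial cells against 23, and 5 for the large bowel in trophocytes against 9. Without the filter on low counts, 10 were called for the large bowel in telocytes against 6 and 11 in lymphatic endothelial cells against 6, and 11 in the latter with doublets kept. DESeq2 called 5 for the large bowel in pericytes and 6 in myofibroblasts, against 10 in each. Leaving out each library, the large bowel counts ran from 5 to 11 in trophocytes, 7 to 16 in subepithelial fibroblasts, 0 to 8 in telocytes, 4 to 10 in pericytes and 4 to 10 in myofibroblasts. With the wider margin of 0.15, added after seeing the data and not among the values above, 8 members were called for the large bowel in subepithelial fibroblasts against 13 and 10 in telocytes against 6, and the counts of the other 6 classes stayed within 1.5 times. Of 43 named changes between regions, 39 then kept direction and call, 3 lost the call and 1 reversed, Kcne4 in subepithelial fibroblasts at -0.54 on the log2 scale. The cause of these shifts was not tested.

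Between proximal and distal small intestine the count of 2 calls became 5 by DESeq2, 1 by limma-voom, 15 without the filter, 1 with 10% of free RNA subtracted, 1 with the stricter gate, 1 with doublets kept, 1 with the wider margin, and 2 to 5 without 1 library. Both Kcnk2 calls of the main fit were lost with doublets kept and without proximal replicate 2, so the calls counted in these settings are other ones. With the replicate block, which pairs libraries of the same number, 21 were called, beside 1.86% of the tests of all genes. Deviations of libraries with the same number correlated at 0.0679 (pericytes) to 0.405 (Adamdec1 fibroblasts), and libraries of the same number carry the same set of hashtags. There are only 2 pairs, and the labels do not say whether a number marks the same mice or batch, so the fit without the block was kept. For the large bowel, ratios against replicate 1 libraries alone, which carry the same hashtags as cecum and large intestine, were on the log2 scale 2.68 for Kcnj8 in pericytes, -3.06 in Ptn-Scg2 cells and -2.43 in lymphatic endothelial cells, with no test, by an alternative added after seeing the data. They share libraries with the comparison that chose these changes, so a shared direction is no separate evidence. Of 322 levels under other settings, 9 moved by over 1 SD. Among them Kcnk5 in lymphatic endothelial cells was at 281 with doublets kept and 349.7 with free RNA subtracted. Single cecum and large intestine libraries, and 22 to 62 glia per library, limit the precision.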
